A study of Mus musculus with 20 samples.

Results

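The MYB family of transcription factors, encoded in the mouse by *Myb*, *Mybl1* and *Mybl2*, was followed through the T lineage acute lymphoblastic leukemias (T-ALLs) of a retroviral mutagenesis screen. The members were the 3 rows of the table of gene counts whose Ensembl identifiers carry these symbols, out of 39017 genes. MOL4070LTR, a retrovirus that integrates into the genome and can activate or disrupt nearby genes (insertional mutagenesis, IM), was injected into C57Bl/6 x 129Sv/Jae F1 pups in the first days of life. Leukemias were transplanted into irradiated wild-type F1 recipients, and poly(A) RNA was sequenced from the bone marrow of the recipients, so that each library can also hold RNA of the host's marrow.

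The RNA data covered 9 leukemias that the study describes, named 20M, 2M, 5C, 73A, 73M, 78A, 8633, JW14 and JW81. Every leukemia carried proviral integrations, and the study's integration map placed one at *Myb* in 5C and 8633, leaving 7 leukemias without it. Each leukemia had 2 libraries, one whose column name carries the letters VEH and one whose column name carries DEX. The sources used here do not explain these letters, and no treatment is given for them in the sample labels. Each leukemia counted as 1 replicate and comes from 1 primary tumor. For levels by integration status, the p-values measure the spread between tumors passaged in mice. For DEX against VEH libraries, they measure how the difference between the 2 libraries of a leukemia varies over the leukemias. Each such difference rests on 1 library of each kind.

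MYB proteins bind DNA through a conserved repeat domain and activate transcription together with coactivators such as CREBBP and EP300. *Myb* (c-Myb) is expressed in immature blood cells, is required for normal thymocyte development, and is a well-known target of retroviral integration and of chromosomal rearrangement in T-cell leukemia. *Mybl2* (B-Myb) is expressed in most dividing cells, where its protein joins the MuvB complex at promoters of genes used late in the cell cycle. *Mybl1* (A-Myb) is best known from male germ cells, where it controls meiosis, and from activated B cells.

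Levels are given as FPKM, the expected count scaled by the length of the exons and by the total of the library. The scaling by length allows comparison between genes. Scaling by the total does not correct for differences in composition between libraries. Genes averaging 1 FPKM or more over the 18 libraries were tested, and all 3 members were among these 11339 genes. *Myb* (ENSMUSG00000019982) lies on chr10:21124935-21160984 on the minus strand of GRCm38 (mm10), with 8933 bases of merged exon. *Mybl1* (ENSMUSG00000025912) lies on chr1:9667415-9700209 on the minus strand, with 5402 bases, and *Mybl2* (ENSMUSG00000017861) on chr2:163054687-163084688 on the plus strand, with 4632 bases. The promoters of the abundant members are shown because both hold the same E2F-type element next to the RefSeq start of transcription. Each line gives the 250 bases before the RefSeq start (GRCm38.p6) on the gene's own strand, 5′ to 3′, at chr10:21160985-21161234 for *Myb* and chr2:163054385-163054634 for *Mybl2*. The *Mybl2* window ends at 163054634, short of the gene start of 163054687 given above, so its 2 annotated starts differ. Capitals mark GGCGGGA, an E2F-type motif.
Myb promoter: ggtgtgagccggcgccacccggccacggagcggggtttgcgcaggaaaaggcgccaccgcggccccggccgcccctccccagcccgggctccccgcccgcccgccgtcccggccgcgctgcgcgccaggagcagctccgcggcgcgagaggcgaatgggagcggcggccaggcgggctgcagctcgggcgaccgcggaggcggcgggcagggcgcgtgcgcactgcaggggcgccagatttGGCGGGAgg
Mybl2 promoter: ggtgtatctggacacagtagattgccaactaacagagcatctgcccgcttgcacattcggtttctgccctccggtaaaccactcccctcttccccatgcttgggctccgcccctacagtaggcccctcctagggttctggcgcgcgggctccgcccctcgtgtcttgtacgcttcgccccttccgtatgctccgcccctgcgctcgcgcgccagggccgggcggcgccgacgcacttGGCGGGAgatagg
The motif GGCGGGA began 9 bases before the RefSeq start in *Myb* and 13 bases before it in *Mybl2*. On either strand it was found in 9.75% of 32851 promoter windows of this length. ACANNNTGT, the core letters of a glucocorticoid response element, was in neither promoter and in 5.84% of the windows. AACNG, the core letters recognized by MYB proteins, was absent from the *Myb* window and occurred 2 times in that of *Mybl2*, on opposite strands; 74.2% of the windows held it. These matches describe the letters of the windows and overlap with no other motif searched.

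*Myb* was the dominant member in every leukemia. Over the 9 leukemias, each the mean of its 2 libraries, its level was 74.6 ± 27.1 FPKM (SD, n = 9), against 11.7 ± 2.62 FPKM for *Mybl2* and 2.57 ± 1.19 FPKM for *Mybl1*. *Myb* held between 74.7% (73A) and 90.2% (8633) of the summed FPKM of the family, *Mybl2* between 9.19% and 19.5%, and *Mybl1* between 0.626% and 5.83%. The order *Myb*, *Mybl2*, *Mybl1* was the same in all 9. Among 21303 protein-coding genes, *Myb* stood at percentiles 96.1 to 98.8 of the level in a leukemia, *Mybl2* at 80.2 to 89.3 and *Mybl1* at 53.8 to 65.7. The germ cell member was thus low but detected everywhere, with expected counts of 38 (the DEX library of JW14) to 3691 (the VEH library of 73M). A floor of 3 counts would be 0.00276 to 0.0675 FPKM for *Mybl1*, and it covers counting error only.

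**Figure D1:**
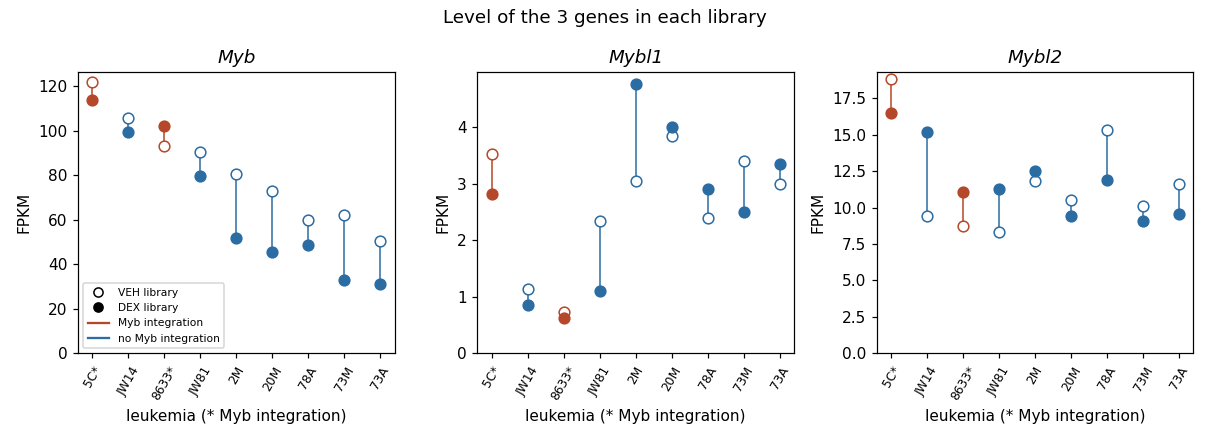
Level of *Myb*, *Mybl1* and *Mybl2* in FPKM (vertical axes, each from 0) in the VEH library (open point) and the DEX library (filled point) of each of the 9 leukemias (horizontal axis, from the highest to the lowest mean of *Myb*), joined by a line; asterisks and the red color mark the leukemias with a *Myb* integration. Mean *Myb* levels run from 118 FPKM in 5C to 40.6 FPKM in 73A, and *Mybl1* is lowest in 8633.

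*Myb* spanned a 2.9-fold range between the means of the leukemias. At the upper end, 5C had 122 FPKM in its VEH library and 114 FPKM in its DEX library, JW14 had 106 and 99.7, 8633 had 93.1 and 102, and JW81 had 90.4 and 79.9. In the same order of libraries, 2M had 80.8 and 51.7 FPKM, 20M had 73.2 and 45.6, 78A had 59.9 and 48.9, 73M had 62.4 and 32.9, and 73A had 50.3 and 31.0. Neighbours in the order of the means mostly had overlapping ranges of their 2 libraries; only 5C and JW14, and 8633 and JW81, did not overlap. The DEX libraries were spread more widely than the VEH libraries, with 67.2 ± 31.8 FPKM (SD, n = 9) and a 3.67-fold range against 82.0 ± 23.2 FPKM (SD, n = 9) and a 2.43-fold range.

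The content of the samples also varied between leukemias, and its part in the *Myb* levels was not tested. The samples carried T lineage RNA in every leukemia: the 12 T lineage markers summed to 537 FPKM in 5C, 629 in 8633 and 635 in JW14, and to 713 to 1236 FPKM in the others. The 11 myeloid markers summed to 11.9 FPKM in JW14 and 38.5 in 8633, the lowest, and to 83.1 to 448 FPKM in the others, the 9 erythroid markers to 2.83 to 436 FPKM (median 16.0), the 9 B lineage markers to 0.562 to 17.7 FPKM and the 7 progenitor markers to 0.486 to 9.77 FPKM. None of the markers of these 5 lists was at 0 in all leukemias, although 5 of the 9 B lineage and 5 of the 7 progenitor markers were under 1 FPKM in every leukemia. A list of 8 NOTCH1 targets, taken from an earlier analysis of these data, summed to 1.99 to 4.9 FPKM in 5C, 8633 and JW14 and to 255 to 406 FPKM in the others. 5C, 8633 and JW14, with the lowest T lineage and NOTCH1 target sums, had the highest mean levels of *Myb*. In bulk RNA, fewer cells of a type and less RNA per cell cannot be told apart.

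The leukemias with a provirus at *Myb* did not stand apart from all others. 5C, at 118 FPKM, was the highest, but 8633, at 97.5 FPKM, was below JW14, which has no *Myb* integration in the study's map and reached 103 FPKM. The mean was 108 ± 14.3 FPKM (SD, n = 2) with the integration and 65.2 ± 21.8 FPKM (SD, n = 7) without. The difference of 0.80 on the log2(FPKM + 1) scale had p = 0.0833 in the exact permutation test over 36 regroupings, and the edgeR estimate was 0.67 (95% confidence interval -0.09 to 1.43, adjusted p = 0.303). In the VEH libraries alone the difference was 0.55 (exact permutation p = 0.111), and in the DEX libraries alone 1.05 (exact permutation p = 0.0556). With 1 leukemia left out in turn the difference was 0.66 to 0.93. Without JW14, whose level lay between those of the pair with the integration, it was 0.92 and the exact permutation p was 0.0357, the smallest that this design can give (edgeR adjusted p = 0.0676). Without any other leukemia that lacks the integration the exact permutation p was 0.107 to 0.143. Without 5C or without 8633 it was 0.375 and 0.125, but 1 leukemia against 7 cannot go below 0.125.

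Both leukemias with the integration were among the 3 with the lowest NOTCH1 target and T lineage marker levels, and the leukemias differed in other features as well, so over the 9 the integration cannot be told apart from these. Across all genes, edgeR called 0 by integration status (0.0% of those tested), with 2082 at an unadjusted p under 0.05, and DESeq2 called 1005. *Mybl1* and *Mybl2* did not pass by integration either, with edgeR log2 fold changes of -0.62 (95% confidence interval -1.96 to 0.72) and 0.31 (-0.16 to 0.78). The sign for *Mybl1* turned without 8633, and that for *Mybl2* turned without 5C.

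*Mybl1*, the member best known from germ cells, had the widest relative range, 5.79-fold between the means of the leukemias. 8633 had 0.73 FPKM in its VEH library and 0.625 FPKM in its DEX library, JW14 had 1.13 and 0.855, and JW81 had 2.34 and 1.1. The other leukemias were closer together: 20M had 3.85 and 4.0 FPKM, 2M had 3.05 and 4.77, 73A had 3.0 and 3.34, 5C had 3.52 and 2.81, 73M had 3.4 and 2.5, and 78A had 2.4 and 2.9. The leukemias with the *Myb* integration thus stood far apart for *Mybl1*, with 8633 lowest and 5C, at a mean of 3.16 FPKM, among the higher ones. Over 640 genes of chromosome 1, where *Mybl1* lies, 2M was shifted upward from the other leukemias by a median of 0.34 (log2). By its mean of 3.91 FPKM, 2M was second for *Mybl1*, after 20M at 3.92 FPKM, whose shift was 0.00. In the VEH libraries 2M was also below 5C and 73M. The part of the shift in the *Mybl1* level was not tested. For *Myb* the median over chromosome 10 differed from that of all genes by at most 0.02 in every leukemia.

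*Mybl2*, which is tied to cell division, varied least. 5C was highest, at 18.8 FPKM in its VEH library and 16.5 FPKM in its DEX library, followed by 78A at 15.3 and 11.9. In JW14 the libraries differed, at 9.41 FPKM (VEH) and 15.2 FPKM (DEX). The remaining leukemias had 8.32 to 11.8 FPKM in VEH and 9.09 to 12.5 FPKM in DEX libraries. The means of the leukemias spanned a 1.84-fold range, from 9.62 to 17.7 FPKM.

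The ratio of members therefore also varied. *Myb* exceeded *Mybl2* by 3.84-fold (73A) to 9.82-fold (8633). *Myb* exceeded *Mybl1* by 12.8-fold (73A) to 144-fold (8633), with JW14 at 104-fold and the other 7 at no more than 49.6-fold. Across the 9 leukemias, Pearson's r between levels was -0.567 for *Myb* and *Mybl1*, 0.428 for *Myb* and *Mybl2* and 0.232 for *Mybl1* and *Mybl2*. These values describe 9 points that share libraries.

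*Myb* was lower in the DEX library than in the VEH library in 8 of 9 leukemias, by amounts that differed widely. The DEX library was lower by 47.3% in 73M, 38.4% in 73A, 37.7% in 20M and 36.1% in 2M. It was lower by 18.3% in 78A, 11.5% in JW81, 6.91% in 5C and 5.63% in JW14, and higher by 9.44% in 8633. 8633, with a *Myb* integration, was the only one of the 9 in which the DEX library was higher.

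Fitted with the leukemia as a block, the *Myb* log2 fold change over the 9 leukemias was -0.34 (SE 0.10, 95% confidence interval -0.56 to -0.11). Its edgeR adjusted p of 0.0505 just missed the threshold that 13.0% of the genes passed. The outcome depended on the setting: DESeq2 gave -0.34 with an adjusted p of 0.0134, and leaving out 5C or 8633 gave edgeR adjusted p of 0.0367 and 0.0281. By integration status, the mean change was 0.01 on the log2(FPKM + 1) scale in the 2 leukemias with the integration and -0.49 in the 7 without. The difference in change was 0.50 (exact permutation p = 0.111), with an edgeR estimate of 0.52 (95% confidence interval 0.08 to 0.96, adjusted p = 0.69). With 1 leukemia left out in turn it was 0.39 to 0.62, with an exact permutation p of 0.0357 without JW14 (0.57) and of 0.0714 to 0.179 without any other that lacks the integration. Without 5C or without 8633 it was 0.125 and 0.375, again in a design that cannot go below 0.125.

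**Figure D2:**
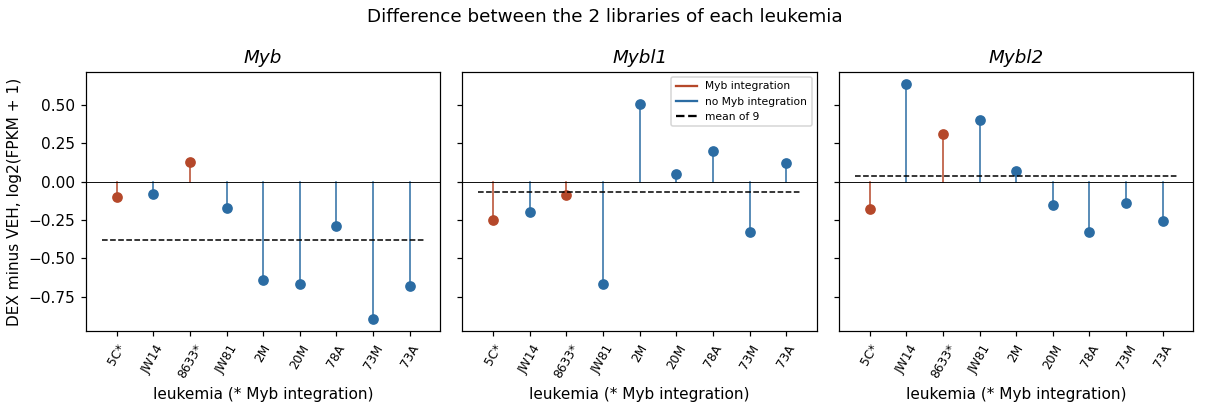
Difference between the DEX and the VEH library of each leukemia (vertical axis, log2(FPKM + 1)) for *Myb*, *Mybl1* and *Mybl2*, with the leukemias on the horizontal axis in the order of their mean *Myb* level, asterisks and red at *Myb* integrations and dashed lines at the mean of the 9. *Myb* differences run from -0.90 to 0.13, with 8 of 9 below 0, while those of *Mybl1* and *Mybl2* lie on both sides of 0.

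Several measurements stood beside the *Myb* difference. In 5 libraries (VEH of 5C, DEX of 20M, 73M, JW14 and JW81) nuclear ribosomal RNA genes stood at 21.6 to 64.0 CPM (counts scaled to the library total), against at most 0.00497 CPM in the other 13. With 8633, 73A, 78A and 2M alone, the 4 leukemias in which neither library was of this kind, *Myb* gave -0.34 (edgeR adjusted p = 0.196), and with that group as a term it was -0.29 (adjusted p = 0.166). The mean log2(FPKM + 1) of the erythroid markers was lower in the DEX library by 2.50 in 73M and by 1.17 in 73A, while the difference was -0.14 to 0.43 in the other 7. The T lineage mean differed by -0.20 to 0.02 and the myeloid mean by -0.69 (73M and JW81) to 0.30 (78A). The B lineage mean was lower by 0.99 in 73M and by 0.29 in 73A, the leukemias with the largest *Myb* differences, and differed by -0.07 to 0.04 in the others. The part of these markers in the *Myb* difference was not tested. Between the libraries 1 of the 12 T lineage markers fell, *Cd5*, a surface protein of T cells (-0.62, SE 0.12, adjusted p = 0.0108), and 0 rose. Of the 6 myeloid markers tested 1 fell, *Itgam*, an integrin of myeloid cells (-0.47, SE 0.13, adjusted p = 0.0369), and of the 8 NOTCH1 targets 1 fell, *Il2ra*, a subunit of the interleukin 2 receptor (-0.96, SE 0.20, adjusted p = 0.0115). The 1 progenitor marker tested, *Kit*, also fell, and none of the 7 erythroid markers or the 1 B lineage marker tested passed. Among all genes 6.79% fell. The *Itgam* and *Kit* calls were lost with the ribosomal RNA group as a term and in the 4 leukemias without such a library. No myeloid marker passed when any leukemia other than 78A or 5C was left out, and *Kit* passed only without 78A, without 5C or without 8633. At least 1 T lineage marker fell in each of these fits.

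The other members had differences in both directions and did not pass. *Mybl1* was lower in the DEX library of 5 leukemias, by 53.1% in JW81, 26.3% in 73M, 24.2% in JW14, 20.2% in 5C and 14.4% in 8633. It was higher in 4, by 56.3% in 2M, 20.9% in 78A, 11.1% in 73A and 4.09% in 20M. The edgeR log2 fold change was -0.08 (95% confidence interval -0.38 to 0.23, adjusted p = 0.738). *Mybl2* was higher in the DEX library of JW14, 1.61-fold, of JW81, 1.36-fold, of 8633, 1.27-fold, and slightly of 2M. It was lower in that of 78A by 21.7%, 73A by 17.7%, 5C by 12.6%, 20M by 10.7% and 73M by 10.5%. Its edgeR log2 fold change was 0.09 (95% confidence interval -0.14 to 0.32, adjusted p = 0.574). Of the 4 DEX libraries with ribosomal RNA counts, those of JW14 and JW81 had more *Mybl2* than their VEH libraries and those of 20M and 73M had less. By integration status the changes of *Mybl1* and *Mybl2* differed by -0.12 (exact permutation p = 0.639) and 0.03 (exact permutation p = 0.944).

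The neighbourhood of *Myb* was examined because integrations can act over a distance. Of the 5 protein-coding genes that start within 500 kb of the *Myb* start, *Hbs1l*, which encodes a factor of ribosome rescue, was nearly flat at 13.6 to 16.7 FPKM. *Ahi1*, which encodes a ciliary protein and lies downstream of *Myb* at a known site of retroviral integration, spread far more. Its mean over the 2 libraries was 34.9 FPKM in JW81, 18.4 in 78A, 9.78 in 73M, 8.08 in 20M, 7.06 in 2M, 5.96 in 73A, 3.25 in JW14, 2.49 in 5C and 2.37 in 8633.

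The leukemias with the *Myb* integration thus had the lowest *Ahi1* levels and high *Myb* levels, but JW14, without it, was next in *Ahi1* and also high in *Myb*, and these 3 were the leukemias with low NOTCH1 target sums. JW81 and 78A had the highest *Ahi1* levels. By integration status the edgeR log2 fold change of *Ahi1* was -2.41 (adjusted p = 0.233). Between the VEH and DEX libraries *Ahi1* fell by 0.30 (SE 0.08, edgeR adjusted p = 0.0335). *Hbs1l* gave 0.04 (SE 0.04, edgeR adjusted p = 0.565) over the 9. *Aldh8a1*, *Pde7b* and *1700020N01Rik* were below 0.1 FPKM in every leukemia. An antisense gene inside *Myb*, *Gm26577*, held 0.927% to 3.88% as many counts as *Myb*; the library kit is not stated to keep strand, so reads of the 2 genes cannot be separated by strand.

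**Figure D3:**
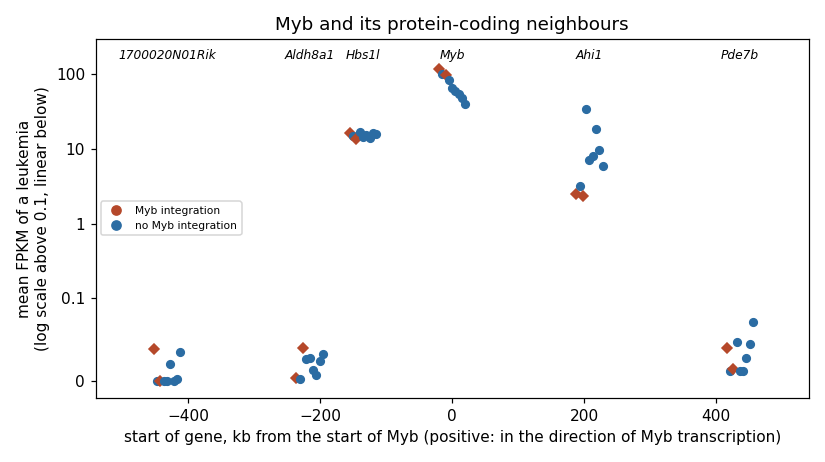
Mean FPKM of each of the 9 leukemias (vertical axis, log scale above 0.1 and linear below) for *Myb* and the 5 protein-coding genes starting within 500 kb, placed by distance of the start from that of *Myb* in kb (horizontal axis), with the points of a gene set side by side for legibility. *Ahi1* ranges from 2.37 to 34.9 FPKM, with both leukemias that carry a *Myb* integration (diamonds) at the bottom, while *Hbs1l* stays between 13.6 and 16.7 FPKM.

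Genes linked to MYB proteins were then followed from fixed lists, fitted over all genes. Genes were named where they were among the 5 largest called changes of a list, and *Foxm1*, *Lin9*, *Fbxw7*, *Ep300* and *Crebbp* whatever their values. *Bcl2* and *Kmt2a* were chosen after their values were seen. By integration status edgeR called 0 of the 11339 genes tested (0.0%), so that no gene of these lists passed says nothing about the lists. DESeq2 called 1005 genes by integration, and its calls within the lists are not given here. Of 12 genes reported as MYB targets in blood cells, 4 fell and 1 rose between VEH and DEX libraries over the 9 leukemias, beside 6.79% and 6.22% of all genes, with a list median of -0.26 against 0.00. The 4 that fell were *Gata3*, a T lineage transcription factor (-0.80, SE 0.21, adjusted p = 0.031), *Myc*, a driver of cell growth (-0.77, SE 0.23, adjusted p = 0.0478), *Kit*, a progenitor receptor (-0.56, SE 0.17, adjusted p = 0.0458), and *Sox4* (-0.53, SE 0.15, adjusted p = 0.0433). *Ccnb1*, a mitotic cyclin, rose by 0.26 (SE 0.07, adjusted p = 0.0311). *Sox4* was lower in the DEX library of 9 of 9 leukemias (-1.30 to -0.01), *Kit* in 7, and *Gata3* (-1.73 to 0.15) and *Myc* (-1.59 to 0.33) in 6. *Bcl2*, an inhibitor of cell death often listed as a MYB target, gave 0.03 (adjusted p = 0.832). With 1 of the leukemias left out these calls numbered 0 to 5, and none of the 12 passed without 20M, without 2M or without 73A. With the ribosomal RNA group as a term 1 fell and 0 rose, and in the 4 leukemias without such a library 1 fell and 1 rose. The list median moved as well, to -0.17 with that term and to -0.07 in those 4 leukemias. It was -0.42 (without 78A) to -0.13 (without 73M) with 1 leukemia left out.

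None of 6 coactivators and none of 8 genes of MYB turnover and modification passed in edgeR over the 9 leukemias, beside 13.0% of all genes, so that few calls would be made in lists of this size at that share. At an unadjusted p under 0.05 there were 2 and 0, beside 3574 of the 11339 genes, and DESeq2 called 1 and 0, beside 2169 genes in all. The coactivator nearest to a call was *Kmt2a*, which encodes a histone methyltransferase (-0.36, SE 0.11, adjusted p = 0.0578), lower in the DEX library in 8 of 9 leukemias. In edgeR 1 coactivator passed, downward, without 78A and without 5C, and 1 turnover gene passed, upward, without JW14. *Crebbp*, the acetyltransferase that MYB recruits, gave 0.16 (adjusted p = 0.13), its paralog *Ep300* -0.08 (adjusted p = 0.599) and *Fbxw7*, a ubiquitin ligase subunit that marks MYB for degradation, -0.03 (adjusted p = 0.615).

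Among the MuvB and DREAM genes, 3 of 13 changed between the libraries, beside 13.0% of all genes. Of the 20 late cell cycle genes listed for MYBL2 and FOXM1, 9 rose in DEX libraries, beside 6.22% of all genes. Of 13 MuvB and DREAM genes, *Tfdp2* (0.32, SE 0.09, adjusted p = 0.0466) and *Foxm1*, the factor that follows MYBL2 onto MuvB (0.26, SE 0.06, adjusted p = 0.0218), rose, and *Lin9*, a MuvB subunit, fell (by 0.19, SE 0.05, adjusted p = 0.0352). *Lin9* was lower in the DEX library in 9 of 9 leukemias and *Foxm1* higher in 8. With 1 leukemia left out 0 to 4 of the 13 passed, and none did without 20M, without 73A, with the ribosomal RNA group as a term or in the 4 leukemias without such a library. Of 20 G2/M genes bound by MYBL2 or FOXM1, 9 rose and 0 fell, beside 6.22% and 6.79% of all genes, with a median of 0.26 against 0.00 over all genes. The largest were *Cdc25c* (0.48, adjusted p = 0.0194), *Bub1b* (0.44, adjusted p = 0.0135), *Cenpa* (0.37, adjusted p = 0.00715), *Ube2c* (0.36, adjusted p = 0.00268) and *Ccnb2* (0.35, adjusted p = 0.0204), all of which act in mitosis. *Bub1b*, *Cenpa* and *Ube2c* were higher in the DEX library in 9 of 9 leukemias, *Cdc25c* and *Ccnb2* in 8. With 1 leukemia left out 5 to 10 rose (5 without 73A), and 5 did with the ribosomal RNA group as a term. In the 4 leukemias without a ribosomal RNA library 8 rose. *Mybl2* itself gave 0.09 and did not pass.

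Of 12 E2F-regulated G1/S genes, 1 passed over the 9 leukemias, a share close to the 6.79% of all genes that fell. It was *Cdc6*, which loads the replicative helicase, falling by 0.45 (SE 0.11, adjusted p = 0.0211). It was lower in the DEX library in 9 of 9 leukemias (-0.98 to -0.05), and it did not pass without 20M, with the ribosomal RNA group as a term or in the 4 leukemias without such a library. The median of this list was -0.14, on the other side of 0 from that of the G2/M list.

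**Figure D4:**
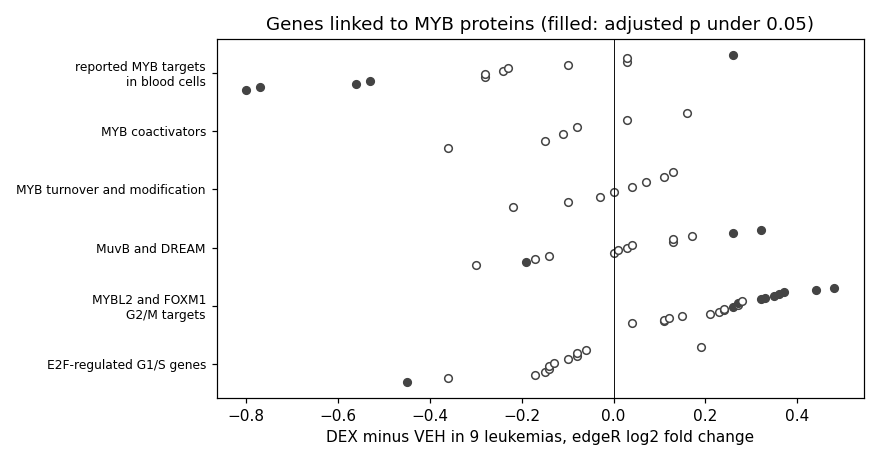
DEX minus VEH log2 fold change (edgeR, horizontal axis) over the 9 leukemias for each gene of the 6 lists named on the vertical axis, ordered by value within a list; filled points have an adjusted p under 0.05. Of the 20 G2/M genes 9 are filled, all to the right of 0, and of the 12 reported MYB targets 4 are filled to the left and 1 to the right.

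Finally, the genes whose levels followed each member most closely over the 9 leukemias were listed, among 5103 protein-coding genes that averaged 1 FPKM or more and had an SD of at least 0.3 (log2). For *Myb* they were *Rinl* (Pearson's r 0.975, 12.6 to 29.9 FPKM), *Egr1*, an immediate early transcription factor (0.974, 0.523 to 4.36 FPKM), the mitochondrial *mt-Co2* (0.946), *Fn3krp* (0.941) and *Tprn* (0.94). For *Mybl1* they were *Camk1d* (0.984), the transcription factor *Foxo1* (0.976, 1.14 to 7.9 FPKM), *Fam177a* (0.971), *Abca3* (0.967) and *Cenpl* (0.966). For *Mybl2* they were *Aif1l* (0.957, 0.0168 to 5.33 FPKM), *St6galnac6* (0.884), *Ahsa2* (0.874), *Paqr4* (0.873) and the histone gene *Hist1h2br* (0.868), whose reads may be shared with close copies. These are the highest of many correlations over 9 points that share libraries, and they are given as a description.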

How the data were processed

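Bone marrow RNA of recipients of each leukemia was sequenced from poly(A)-selected TruSeq libraries. The authors aligned reads with Bowtie 2 to mm10 and deposited RSEM expected counts per gene, in a table whose name says FPKM; the RSEM version and annotation are not given in the sources used here. Totals ranged from 8226528 to 201222288 counts (median 24451898). DEX columns of 2M, 73A and 4638 were matched to the leukemia by its name alone. *Myb* integration was read from the study's chart.

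FPKM were calculated with merged exon lengths of GENCODE M21. Expected counts were rounded, genes averaging under 1 FPKM dropped, and edgeR 4.0.16 (TMM, quasi-likelihood, Benjamini-Hochberg, adjusted p of 0.05; R 4.3.3) applied, with the leukemia as a block between the columns, and on summed counts between leukemias. Exact permutation tests were two-sided, on log2(FPKM + 1). DESeq2 1.42.0 and limma 3.58.1 were alternatives. Counts were simulated for the 11339 genes, with changes put only into some of the better-counted genes. Among those, edgeR recovered 95% of 2-fold changes between the columns and 8% of 2-fold level differences by integration. Changes smaller than 2-fold were not simulated. A planned comparison between leukemias is not reported here. Named genes followed the rule given with the lists. The members and lists were chosen with earlier results of these data known, and list counts with the ribosomal RNA group as a term, or only in leukemias without such a library, were added after the values were seen. Matching used symbols; promoters came from RefSeq, which gave 1 window each for *Myb* and *Mybl2*. The *Mybl1* promoter and protein sequences were not used here.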

Additional observations from a re-analysis of the deposited data

How the results depend on the processing

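The lowest count in a library was 4741 for *Myb*, 579 for *Mybl2* and 38 for *Mybl1*, so counting error was largest for *Mybl1*. Only 2 leukemias carried the integration.

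Over the 9 leukemias the DEX minus VEH change of *Myb* (-0.34) passed with DESeq2 (-0.34, adjusted p = 0.0134), upper quartile factors (-0.35), no filter (-0.37), filterByExpr (-0.34) and limma on log2(FPKM + 1) (-0.38). It did not pass with RLE factors, thinned libraries, the ribosomal RNA term (-0.29, adjusted p = 0.166) or no leukemia block (-0.23, adjusted p = 1.0). With a leukemia left out it was -0.40 to -0.28, passing without 5C and without 8633. For *Mybl1* the sign turned with no leukemia block (0.02), the ribosomal RNA term (0.01) and only leukemias without such a library (0.29); leaving out gave -0.18 to 0.03. For *Mybl2* it turned in leukemias without a ribosomal RNA library (-0.01). Changes called with limma were 443 higher and 1089 lower, against 705 and 770 with edgeR.

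By integration, the change ranged from 0.39 to 0.62 for *Myb*, passing without JW14, and from -0.22 to 0.27 for *Mybl2*, with no p below 0.05. For levels by integration, leaving out 1 leukemia gave 0.66 to 0.93 for *Myb*, -1.09 to 0.22 for *Mybl1* (-2.01 to 0.08 by edgeR) and -0.14 to 0.64 for *Mybl2* (-0.11 to 0.64 by edgeR). In TPM the mean levels were 114, 4.03 and 18.0, and over protein-coding genes alone 92.1, 3.17 and 14.5 FPKM for *Myb*, *Mybl1* and *Mybl2*. The order of the leukemias also moved: in TPM 7 of 9 kept their rank for *Myb*, 7 for *Mybl1* and 4 for *Mybl2*. DESeq2 called 2169 genes between the columns and 1005 by integration, against 1475 and 0 with edgeR. The causes were not tested.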

Other observations

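The table also holds 2 libraries of a leukemia labelled 4638, which the study's text does not name. The study's chart of integrations holds a similar number but not this one, and whether they are the same leukemia is not known, so it was given no integration status here. *Myb* was 53.7 FPKM in its VEH library and 38.8 FPKM in its DEX library, 27.8% lower. *Mybl1* was 2.33 and 2.21 FPKM, and *Mybl2* 13.5 and 13.3 FPKM.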
